A study of Homo sapiens with 11 samples.

Results

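The HOX genes of clusters A, B, C and D were followed in tumours grown from PC-3 cells, a human prostate carcinoma line. All genes whose symbol consists of HOX, the letter of a cluster and a number were taken from the deposited tables, which gave 39 of the 25590 genes listed. The tumours had grown subcutaneously in male athymic nude mice (Crl:NU-Foxn1nu) that were 8 weeks old when they were inoculated with PC-3 cells in matrigel. From 7 days after inoculation, mice received intraperitoneal injections of PBS (control) or of 5.6 mg A2M*, the activated form of the proteinase inhibitor alpha2-macroglobulin (labelled A2M). RNA from 5 tumours of PBS-treated and 6 tumours of A2M*-treated mice was sequenced, and only reads that the authors assigned to the human graft were counted. All tumours derive from 1 cell line and grew in a host without a thymus. One library was made per tumour, and the tumours are named here by treatment and number, PBS-123 to PBS-127, A2M-128 to A2M-132 and A2M-112.

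HOX genes encode transcription factors that bind DNA through a homeodomain. Within a cluster they stand in the order in which they are used along the body axis of the embryo, the low-numbered genes towards the head and the high-numbered genes towards the tail. The HOXA cluster lies on chromosome 7, HOXB on chromosome 17, HOXC on chromosome 12 and HOXD on chromosome 2. Genes of the same number in different clusters descend from 1 ancestral gene and form a paralogue group. Many HOX genes stay active in adult epithelia, where the pattern records the position of a tissue along the body, and the posterior gene HOXB13 marks the prostate lineage. PBX and MEIS proteins bind DNA together with HOX proteins, while Polycomb and trithorax complexes keep the clusters closed or open.

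Before the values, the sequence upstream of 4 members is shown, as examples from strongly, variably and hardly expressed genes. HOXA13 was among the more strongly expressed members, HOXA9 and HOXD13 varied most between tumours, and HOXB1 was nearly silent. Each line holds the 250 bases before a RefSeq transcription start, matched without mismatch to GRCh37, the build used by the authors, and read 5′ to 3′ on the strand of the gene. The windows lie at chr7:27239711-27239960 (HOXA13, minus strand), chr7:27205157-27205406 (HOXA9, minus strand), chr2:176957199-176957448 (HOXD13, plus strand) and chr17:46608374-46608623 (HOXB1, minus strand). None overlaps an annotated exon of a counted gene, and other annotated genes were not searched. The HOXA9 window lies within an intron of longer HOXA9 transcripts, and the others lie before the annotated gene. Capitals mark CpG dinucleotides.
HOXA13: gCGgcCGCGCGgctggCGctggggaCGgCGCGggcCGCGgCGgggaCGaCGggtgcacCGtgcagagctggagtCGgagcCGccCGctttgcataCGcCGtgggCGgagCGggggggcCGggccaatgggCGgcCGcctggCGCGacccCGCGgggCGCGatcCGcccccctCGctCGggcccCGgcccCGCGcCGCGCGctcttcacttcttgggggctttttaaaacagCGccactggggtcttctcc
HOXA9: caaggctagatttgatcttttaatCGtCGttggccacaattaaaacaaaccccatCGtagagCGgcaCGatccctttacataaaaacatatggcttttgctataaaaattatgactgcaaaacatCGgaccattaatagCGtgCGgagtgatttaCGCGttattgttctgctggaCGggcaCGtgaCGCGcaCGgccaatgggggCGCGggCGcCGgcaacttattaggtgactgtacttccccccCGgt
HOXD13: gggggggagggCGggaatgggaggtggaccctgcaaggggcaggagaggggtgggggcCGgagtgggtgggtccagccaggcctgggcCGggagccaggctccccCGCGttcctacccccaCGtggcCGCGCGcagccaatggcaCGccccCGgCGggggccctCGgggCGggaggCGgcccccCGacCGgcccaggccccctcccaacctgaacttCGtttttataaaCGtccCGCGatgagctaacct
HOXB1: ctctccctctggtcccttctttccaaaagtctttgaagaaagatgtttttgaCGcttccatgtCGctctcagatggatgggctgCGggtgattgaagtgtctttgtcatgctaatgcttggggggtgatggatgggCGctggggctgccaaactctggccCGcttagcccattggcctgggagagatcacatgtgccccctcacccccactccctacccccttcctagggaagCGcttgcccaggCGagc

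The HOXA13 window held 40 CpG dinucleotides, those of HOXD13 and HOXA9 held 21 and 20, and that of HOXB1 held 7. Windows for 20 of the 39 HOX genes were found in the RefSeq table (GRCh38.p14), 27 windows in all, and their median of 19 CpG compares with a median of 11 over all 35116 windows. The letters TATAAA, searched on both strands with overlapping matches counted, occurred in 5 of the 27 HOX windows (18.5%) and in 10.7% of all windows, among them the windows of HOXA9 and HOXD13. The letters TGATNNAT, the pattern that HOX and PBX proteins bind jointly, occurred in 3 of the 27 (11.1%) and in 6.47% of all windows, among them that of HOXB1. These matches describe the letters only.

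Between 16958533 and 35874381 counts per tumour fell on genes, of which HOX genes took 0.0462% to 0.0745%. Of all genes, 22078 had at least 1 count and 16630 had enough counts to be tested. The tumours expressed the epithelial markers EPCAM, KRT8, KRT18, KRT19 and CDH1 at a summed 2116 to 2599 RPM (reads per 1000000 counted reads) in the PBS group and 1734 to 2542 RPM in the A2M* group. Of 5 markers of luminal prostate cells, KLK3 was at 0 in every tumour and KLK2 stayed under 3 counts, so that the label of a prostate line did not extend to the secretory genes of the prostate.

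The HOX pattern of the PC-3 tumours was dominated by the HOXB cluster. Levels were compared per length, as RPKM (reads per kilobase of exon and 1000000 counted reads). The RPKM of the 10 HOXB genes summed to a median of 159.2 (range 125.8 to 225.3 over the 11 tumours), which was 69.1% of the summed RPKM of all HOX genes. The 11 HOXA genes followed with a summed RPKM of 46.9 (38.0 to 62.4) and 20.5% of the HOX total. The 9 HOXC genes reached 20.7 (18.6 to 24.5), or 9.39%. The 9 HOXD genes reached 4.05 (2.61 to 6.29), or 1.75%. The 4 ranges did not overlap, so that the order of the clusters was the same in every tumour.

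**Figure D1:**
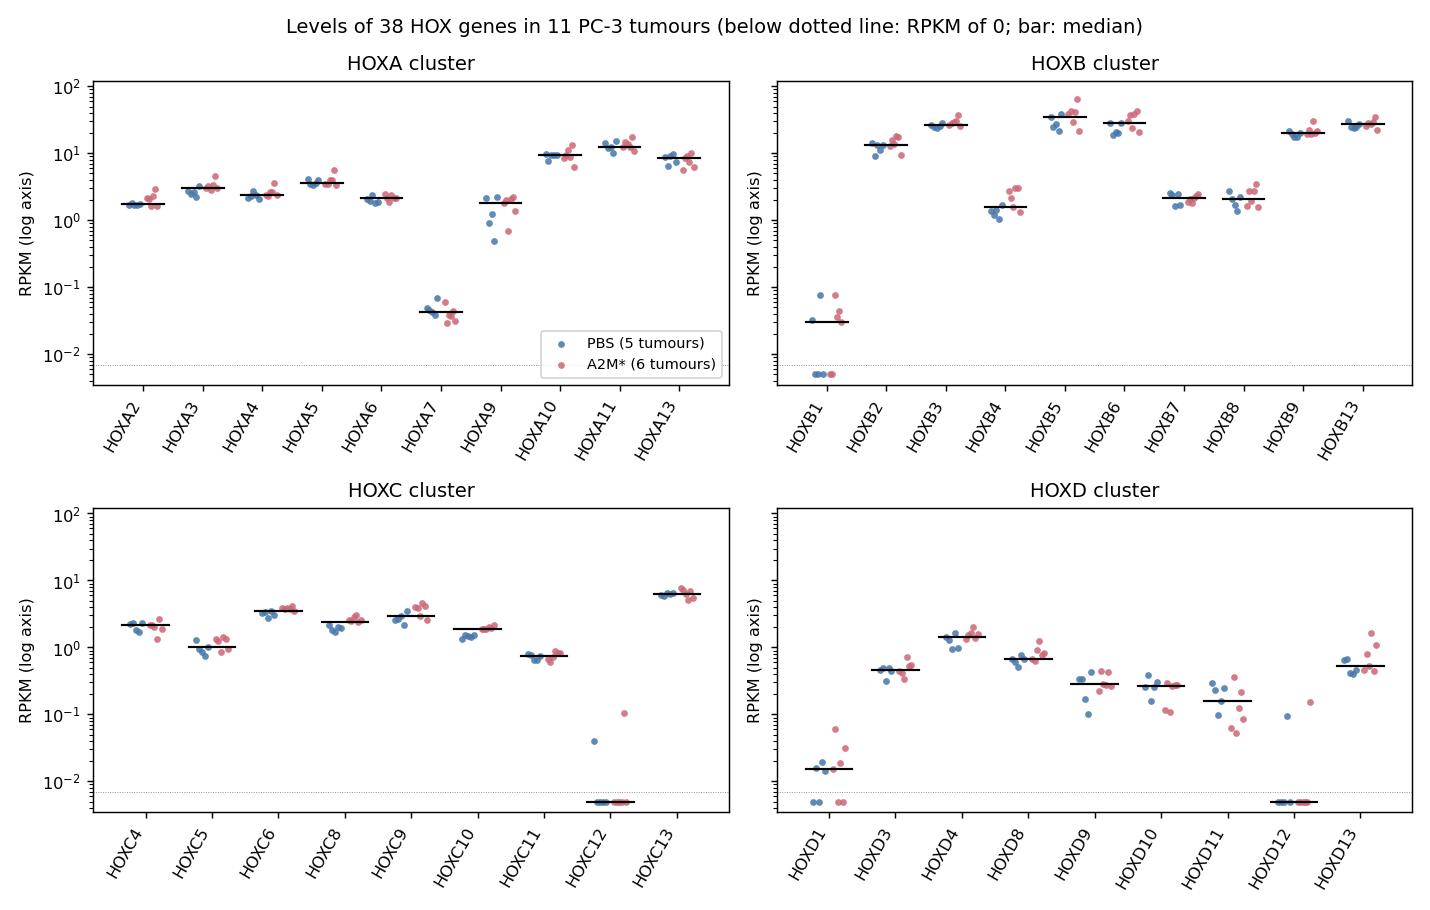
RPKM of 38 of the 39 HOX genes in each tumour, on a log axis, with genes in numerical order along each cluster, blue points are the 5 PBS tumours, red points the 6 A2M* tumours, and the bar is the median of all 11. Genes at RPKM of 0 are drawn below the dotted line, and the 6 HOXB genes HOXB2, HOXB3, HOXB5, HOXB6, HOXB9 and HOXB13 stand above a median of 10.

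Of the 39 genes, 33 had at least 3 counts in every tumour: 10 of 11 in HOXA, 9 of 10 in HOXB, 8 of 9 in HOXC and 6 of 9 in HOXD. A median RPKM of at least 1 was reached by 9 HOXA, 9 HOXB, 6 HOXC and 1 HOXD gene. Only 7 genes exceeded a median of 10 RPKM, and 6 of these were HOXB genes. The 6 members outside the test were near the limit of detection. HOXA7 had 1 to 5 counts and HOXD11 had 2 to 13 counts in every tumour. HOXB1, which specifies facial motor neurons of the hindbrain, had 0 to 2 counts, with counts in 6 tumours. HOXD1 had 0 to 2 counts, with counts in 7 tumours. HOXC12 and HOXD12, which make up paralogue group 12, had counts in 2 tumours each, of at most 2 and 4. A limit of 3 counts corresponds to 0.0836 to 0.177 CPM (counts per 1000000), depending on the tumour.

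The strongest member was HOXB5, a gene of the developing lung and gut, with a median of 34.7 RPKM. HOXB6, its neighbour, followed with 28.3, then HOXB13 with 27.1 and HOXB3, a gene of the hindbrain, with 26.4. HOXB5 stood above HOXB6 in 11 of 11 tumours, by 0.28 ± 0.17 on the log2 scale (mean ± SD of the ratio within a tumour, n = 11). HOXB6 and HOXB13 did not differ beyond their spread, with HOXB6 above in 5 of 11 tumours, and neither did HOXB13 and HOXB3, with HOXB13 above in 3 of 11. HOXB9, a gene of the thorax, had 20.1 RPKM and HOXB2, a gene of hindbrain segments, 13.4. HOXB2 and HOXA11 (12.6 RPKM), which acts in limb, kidney and uterus, did not differ beyond their spread. Of the 32 pairs of neighbours in the order of the 33 tested genes, 10 differed by more than 1 SD of their ratio and 22 did not.

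Below these came the posterior HOXA genes HOXA10, a regulator of uterine and blood cell development, with 9.52 RPKM and HOXA13, which shapes digits and the genital tract, with 8.54. HOXC13, a regulator of hair keratins, led its cluster with 6.28 RPKM and 30.5% of the HOXC sum. HOXC6, which acts in thoracic patterning, had 3.56 RPKM and HOXC9, a gene of thoracic motor neurons, 2.98. In the HOXD cluster HOXD4, a gene of the hindbrain and neck, had 1.45 RPKM and 34.2% of the cluster, while HOXD8 had 0.675 and HOXD13, the partner of HOXA13 in digits, 0.536. Between the strongest and the weakest tested member the medians ranged from 34.7 RPKM for HOXB5 to 0.268 RPKM for HOXD10.

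By paralogue group, the sums were led by group 13 with a median of 41.5 RPKM and group 5 with 40.2. In several groups a single HOXB gene held the larger share. HOXB5 took 86.5% of group 5, HOXB6 82.9% of group 6 (33.7 RPKM), HOXB3 88.6% of group 3 (29.9 RPKM), HOXB9 80.7% of group 9 (25.4 RPKM) and HOXB2 88.3% of group 2 (15.2 RPKM). In groups 10 and 11, which have no HOXB gene, HOXA10 took 83.8% of 11.2 RPKM and HOXA11 93.8% of 13.6 RPKM. Group 4 (7.28 RPKM) and group 8 (4.96 RPKM) were shared between clusters. Group 7 reached 2.21 RPKM and group 12 had a median of 0.

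HOXB13 lies apart from its cluster, 98.4 kb from HOXB9 (chr17:46802125-46806112, minus strand, GRCh37), and no exon of another counted gene overlaps it. It took 64.7% of group 13 and ranked behind HOXB5 and HOXB6 in RPKM. After scaling of the libraries by TMM, its level in the PBS tumours PBS-123 to PBS-127 was 92.2, 78.9, 75.4, 74.4 and 84.1 CPM. In the A2M* tumours it lay between 68.3 and 102.6 CPM with a median of 83.6. The lowest and the highest value were both from A2M* tumours, A2M-112 and A2M-132, and enclosed the PBS group. The log2 fold change of A2M* over PBS was 0.044 (SE 0.095, edgeR quasi-likelihood test, adjusted p = 0.958). It was -0.024 without tumour A2M-132 and 0.098 without tumour A2M-112. FOXA1, a factor that opens chromatin for other factors and the strongest of 7 listed HOXB13 partner and luminal genes, had a log2 fold change of -0.0068 (SE 0.13, edgeR, adjusted p = 0.995), whose sign turned with upper quartile or library size scaling, and 0 of the 5 tested genes of that list had an unadjusted p under 0.05.

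The comparison of A2M* with PBS asks whether the treatment shifted the HOX pattern of the tumour cells. Of the 33 tested HOX genes, 0 passed an adjusted p of 0.01 in edgeR, as for all 16630 genes (0%), nor did any at 0.05 (0%). The smallest adjusted p of a HOX gene was 0.599 with the quasi-likelihood test and 0.0629 with DESeq2, which also called 0 HOX genes at 0.01. At an unadjusted p under 0.05 stood 6 of the 33 HOX genes, beside 7.08% of all genes. All 6 were higher in A2M* tumours, a direction seen at this p for 3.55% of all genes, and 0 were lower, beside 3.53% of all genes. The 6 were HOXB4, HOXB6, HOXC6, HOXC8, HOXC9 and HOXC10, all of paralogue groups 4 to 10. Without tumour PBS-125 the number was 3 of 33, while 682 of 16658 genes in all stood at that p. It was 9 of 33 without tumour A2M-130 (1023 of 16614 genes in all) and also without tumour A2M-112 (1343 of 16521). As each value is taken over a whole tumour, more RNA per cell and more cells of a kind cannot be told apart in it.

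**Figure D2:**
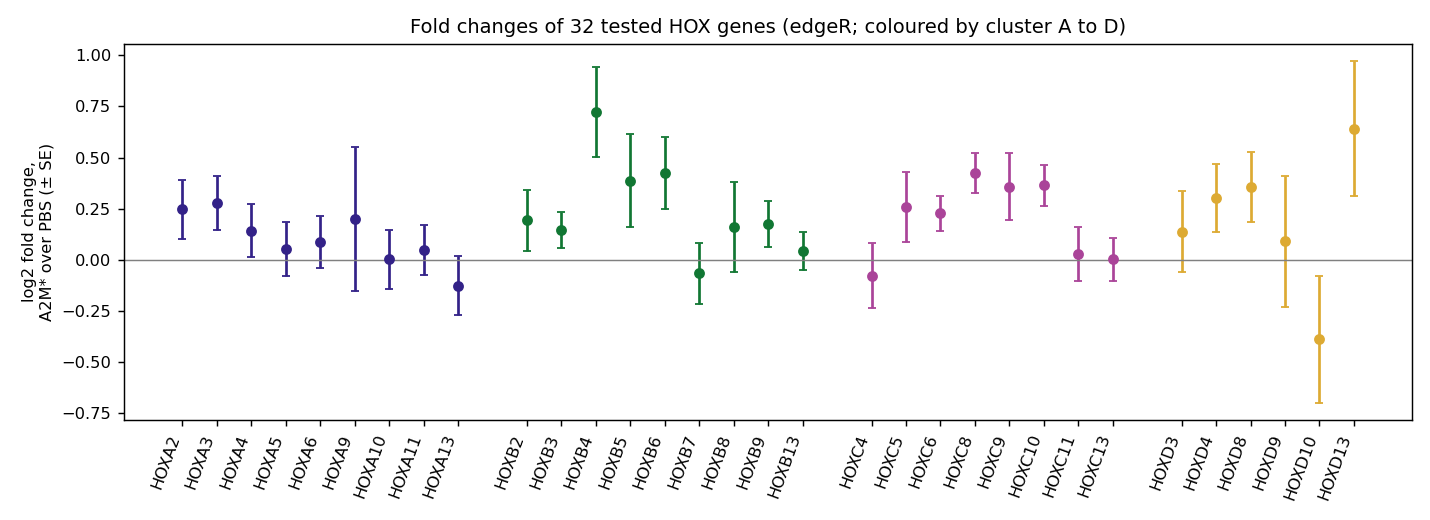
Log2 fold change of A2M* over PBS for 32 of the 33 tested HOX genes, with its standard error as bar, in numerical order within the clusters A to D. Of the 32 points 28 lie above 0, and the highest is HOXB4 at 0.72.

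The fold change was above 0 in 29 of the 33 HOX genes (87.9%), beside 49.4% of all genes. The median log2 fold change was 0.16 for HOX genes and -0.0021 for all genes. By cluster, the fold change was above 0 in 9 of 10 HOXA, 8 of 9 HOXB, 7 of 8 HOXC and 5 of 6 HOXD genes. The medians were 0.071, 0.17, 0.24 and 0.22. Along the clusters, the median was 0.17 for the 6 tested genes of groups 1 to 3, 0.24 for the 14 of groups 4 to 8 and 0.046 for the 13 of groups 9 to 13. The number above 0 was 23 of 33 when A2M* tumour A2M-132 was left out and 24 of 34 without PBS tumour PBS-126. The 33 genes were measured in the same tumours and lie in 4 loci, so that their values are not independent. Tumour A2M-132 had the highest CPM for 15 of the 33 HOX genes (45.5%), beside 15.9% of all genes, and tumour A2M-131 for 10 (30.3%), beside 14.4%. Among PBS tumours, PBS-126 had the lowest CPM for 12 (36.4%, beside 12.2%) and PBS-125 for 7 (21.2%, beside 7.35%). The 5 epithelial markers had fold changes below 0, with a median of -0.14 on the log2 scale, and 0 of them had an unadjusted p under 0.05. Their sum was lowest in tumour A2M-131 (1734 RPM), while in A2M-132 it was the highest of the A2M* group (2542 RPM), and its part in the HOX values was not tested.

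Summed over a cluster, the groups overlapped in all 4 clusters. The summed RPKM was 45.0 ± 3.67 (SD, n = 5) in PBS and 48.0 ± 8.21 (n = 6) in A2M* tumours for HOXA, 141.7 ± 18.8 and 173.0 ± 35.4 for HOXB, 19.4 ± 0.856 and 22.6 ± 1.69 for HOXC, and 3.65 ± 0.626 and 4.50 ± 1.03 for HOXD. The HOXC groups overlapped least, with 18.6 to 20.7 in PBS and 20.0 to 24.5 in A2M* tumours. The spread was wider in the A2M* group in each cluster. These sums are not scaled by TMM and were not tested.

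**Figure D3:**
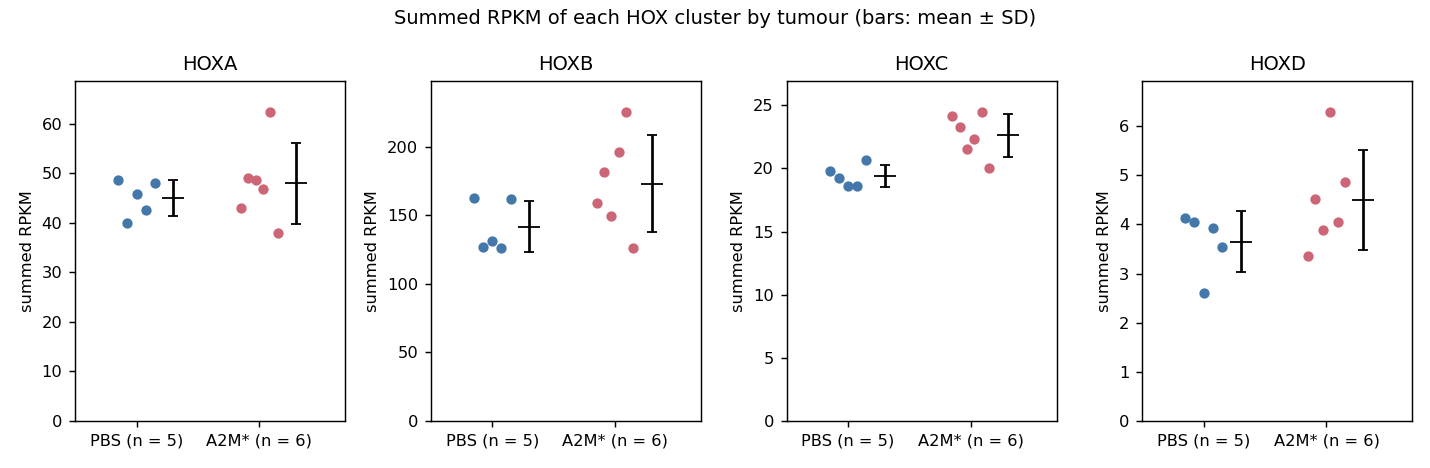
Summed RPKM of the HOXA, HOXB, HOXC and HOXD genes in each tumour (points), with mean ± SD of the 5 PBS and 6 A2M* tumours beside them, each panel on its own axis from 0. In HOXC 5 of the 6 A2M* tumours stand above all PBS tumours, while the groups share most of their range in HOXA.

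The genes whose groups did not overlap in CPM were HOXC6, HOXC8 and HOXC10, 3 of the 33 HOX genes, beside 0.71% of all genes. In each of them every A2M* tumour stood above every PBS tumour, an order held by 0.385% of all genes. For HOXC8, a gene of thoracic patterning (chr12:54402769-54406553, plus strand), the PBS tumours PBS-123 to PBS-127 had 4.84, 4.35, 3.98, 4.66 and 4.55 CPM. The A2M* tumours had 5.29 to 6.85 CPM with a median of 5.87, so that a gap remained between the highest PBS and the lowest A2M* tumour. The log2 fold change was 0.42 (SE 0.098, edgeR, adjusted p = 0.599), the smallest p of the HOX genes. Leaving out any single tumour kept it between 0.38 and 0.46.

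HOXC10, which specifies lumbar motor neurons and hindlimb position, had 2.62, 3.16, 2.99, 2.83 and 3.07 CPM in the PBS tumours. Its A2M* tumours had 3.64 to 4.22 CPM with a median of 3.67. Tumour A2M-112 was the highest, and the other 5 lay within 3.64 to 3.79 CPM. Its log2 fold change was 0.36 (SE 0.098, edgeR, adjusted p = 0.599). HOXC6 had 7.29, 7.83, 6.34, 7.94 and 6.91 CPM in the PBS tumours and 8.01 to 9.10 CPM with a median of 8.53 in the A2M* tumours. The groups nearly touched, at 7.94 in PBS tumour PBS-126 and 8.01 in A2M* tumour A2M-112. The log2 fold change was 0.23 (SE 0.086, edgeR, adjusted p = 0.642). Part of the annotated exons of HOXC6 is shared with HOXC4 and HOXC9 (16.1% on the same strand), whereas HOXC8 shares none and HOXC10 shares 2.66% with HOXC-AS3 on the other strand. HOXC9, with a log2 fold change of 0.36 (SE 0.16, edgeR, adjusted p = 0.699), had overlapping groups, 3.36 to 5.51 CPM in PBS and 3.94 to 6.89 CPM in A2M* tumours. HOXC4, a gene also used in activated B cells, had a value below 0, -0.078 (SE 0.16, edgeR, adjusted p = 0.952). HOXC13 had 15.2 ± 0.855 CPM (SD, n = 5) in PBS and 15.3 ± 2.35 CPM (n = 6) in A2M* tumours, a log2 fold change of 0.0044 (SE 0.11) whose sign turned with limma-voom.

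**Figure D4:**
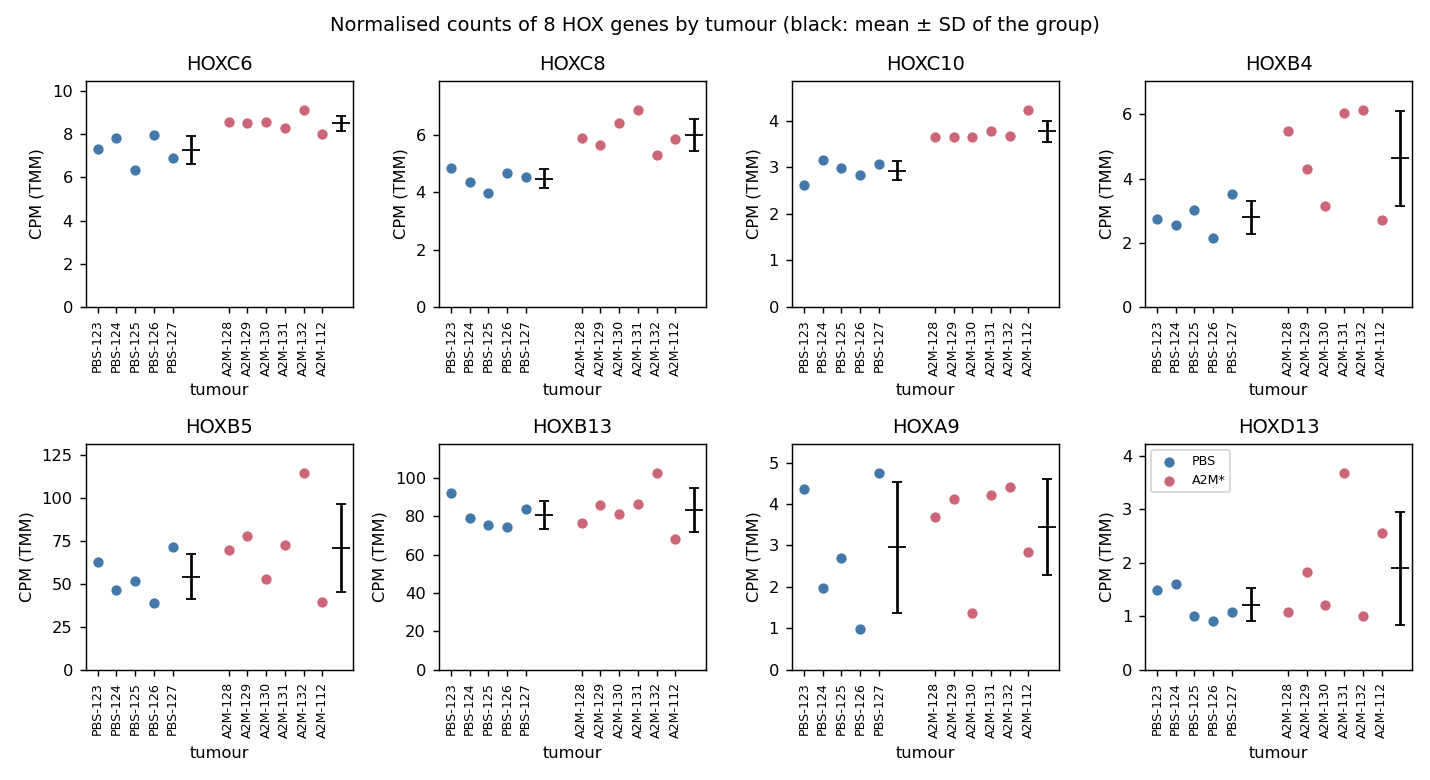
CPM (counts per 1000000, TMM) of HOXC6, HOXC8, HOXC10, HOXB4, HOXB5, HOXB13, HOXA9 and HOXD13 in each of the 11 tumours, PBS in blue and A2M* in red, with mean ± SD of each group in black and each axis from 0. The groups are separate in HOXC6, HOXC8 and HOXC10 and overlap in the other panels, with HOXB5 highest in tumour A2M-132 and HOXD13 highest in tumour A2M-131.

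In the HOXB cluster the largest fold change was that of HOXB4, a gene known for expanding blood stem cells. The PBS tumours had 2.75, 2.55, 3.02, 2.14 and 3.52 CPM. The A2M* tumours A2M-128, A2M-129, A2M-131 and A2M-132 had 5.47, 4.31, 6.06 and 6.12 CPM, but A2M-130 and A2M-112 had 3.15 and 2.72 CPM. Thus 4 of the 6 A2M* tumours stood above all PBS tumours and 2 among them. Its log2 fold change was 0.72 (SE 0.22, edgeR, adjusted p = 0.599).

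In HOXB6 the same 4 tumours stood above all PBS tumours. It had 47.0, 33.4, 35.9, 33.5 and 49.1 CPM in the PBS tumours and 50.8, 63.2, 62.7 and 69.6 CPM in A2M* tumours A2M-128, A2M-129, A2M-131 and A2M-132, but 39.2 and 35.5 CPM in A2M-130 and A2M-112. The log2 fold change was 0.43 (SE 0.18, edgeR, adjusted p = 0.663). Of its annotated exon bases, 32.9% are shared with HOXB3 or with HOXB-AS3. HOXB5 had 62.6, 46.4, 51.5, 38.8 and 71.1 CPM in the PBS tumours and 39.0 to 114.1 CPM with a median of 70.8 in the A2M* tumours. Tumour A2M-112 was at the lower end of the PBS values and A2M-132 far above them. The log2 fold change of 0.39 (SE 0.23, edgeR, adjusted p = 0.777) was 0.20 without tumour A2M-132.

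In the HOXA cluster the fold changes of the strong posterior genes were smaller than their standard errors. HOXA11 had a log2 fold change of 0.046 (SE 0.12), HOXA10 of 0.0023 (SE 0.14) and HOXA13 of -0.13 (SE 0.14, edgeR, adjusted p = 0.907). For HOXA13 it was -0.050 without tumour A2M-128 and -0.21 without tumour A2M-132. The sign for HOXA10 and HOXA11 turned when tumour A2M-132 was left out, and that of HOXA10 also with limma-voom. HOXA11 shares 27.2% of its annotated exon bases with HOXA11-AS on the other strand. Because HOXA13 and HOXD13 work together in digits and genital tract, their values are set side by side. HOXA13 had 21.8, 17.1, 23.6, 24.5 and 18.8 CPM in the PBS tumours and 14.3 to 24.6 CPM with a median of 20.0 in the A2M* tumours, so that the groups shared most of their range.

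HOXD13 had 1.49, 1.61, 0.996, 0.916 and 1.08 CPM in the PBS tumours. The A2M* tumours had 1.01 to 3.68 CPM with a median of 1.52, and only A2M-131 (3.68), A2M-112 (2.56) and A2M-129 (1.83) stood above the PBS values. Its log2 fold change was 0.64 (SE 0.33, edgeR, adjusted p = 0.743) and 0.34 without tumour A2M-131. These 3 tumours also had the highest summed RPM of 7 fibroblast markers, 797.6 in A2M-131, 922.3 in A2M-112 and 700.6 in A2M-129, against 319.9 to 665.3 in PBS tumours and 320.6 to 615.5 in the other A2M* tumours. COL1A1 made up most of that sum, the defining genes DCN and LUM were at or near 0, and all 5 tested fibroblast genes had fold changes above 0, with COL1A2 at 0.73 (SE 0.33, edgeR, adjusted p = 0.699). Mouse stroma surrounds such tumours, and the part of stromal reads or of fibroblast-like cells in the HOXD13 values was not tested. HOXC10 was likewise highest in A2M-112 and A2M-131 (4.22 and 3.79 CPM), and within the PBS group in PBS-124 and PBS-127 (3.16 and 3.07 CPM), the PBS tumours with the highest fibroblast sums (665.3 and 657.9 RPM). In tumour A2M-128, which had the lowest fibroblast sum of the A2M* group (320.6 RPM), HOXC10 was 3.65 CPM, HOXC8 5.89 CPM and HOXB4 5.47 CPM. The part of such reads in these values was not tested either. The sums of the 5 endothelial markers (16.4 to 24.1 RPM in PBS, 15.4 to 23.6 RPM in A2M*) and of the 6 immune markers (30.3 to 39.1 RPM and 32.0 to 38.0 RPM) overlapped widely. PECAM1 made up most of the endothelial sum and CD68 most of the immune sum. Of the 4 tested immune genes, 2 had fold changes above 0 and 2 below. The general leukocyte gene PTPRC, at 0.938 to 2.63 CPM, had -0.44 (SE 0.22, edgeR, adjusted p = 0.735). All 3 tested endothelial genes had fold changes below 0, with VWF at -0.42 (SE 0.17, edgeR, adjusted p = 0.648).

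HOXD10, a gene of limb and lumbar motor neurons, had the smallest p among the 4 HOX genes that were lower in A2M* tumours. It had 5 to 23 counts per tumour, and its log2 fold change was -0.39 (SE 0.31, edgeR, adjusted p = 0.858), which was -0.21 without tumour PBS-124. HOXD4 and HOXD8 had log2 fold changes of 0.30 (SE 0.16) and 0.36 (SE 0.17), with adjusted p in edgeR of 0.764 and 0.713. Without tumour A2M-131 the value for HOXD8 was 0.22.

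As a description, 25 of the 33 HOX genes varied more between tumours of a group than the median gene of like abundance. The biological coefficient of variation, the part of the spread between replicates that counting does not account for, had a median of 15.3% over the 33 HOX genes and 12.4% over all genes. The widest were HOXA9, a driver of leukaemia, with 40.1% (above 99.1% of all genes), and HOXD13 with 35.2%. HOXB5, at 26.1%, was the widest of the strongly expressed members, beside a median of 10.2% for its abundance. The steadiest were HOXC10 with 9.08%, HOXC11 with 9.31% and HOXC6 with 9.75%. HOXC10 and HOXC6 are also among the 3 genes with separate groups, and the fitted spread enters their p. HOXA9 had 4.38, 1.97, 2.69, 0.993 and 4.75 CPM in the PBS tumours and 1.37 to 4.42 CPM with a median of 3.91 in the A2M* tumours. It was low in tumours PBS-126, A2M-130 and PBS-124, of both groups, and its log2 fold change of 0.20 (SE 0.35, edgeR, adjusted p = 0.941) was within that spread. HOXA9 and HOXC11 were singled out after their values were seen.

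**Figure D5:**
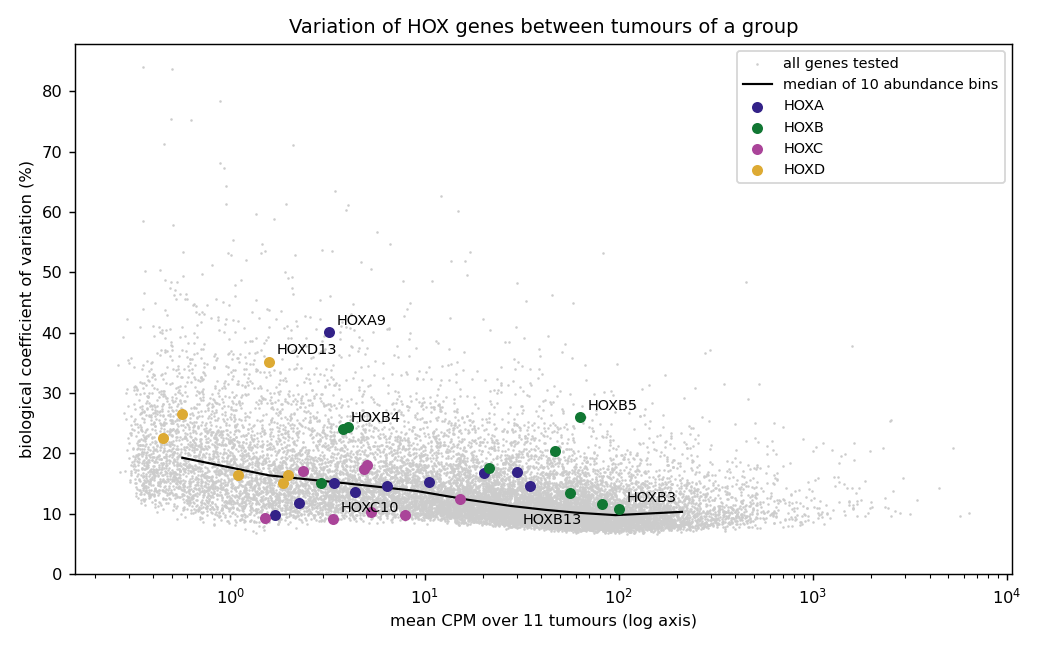
Biological coefficient of variation (%) of each tested gene against its mean CPM over 11 tumours, on a log x axis, where grey points are all genes tested, coloured points the HOX genes by cluster, and the line is the median of 10 abundance bins. Of the 33 HOX points 25 lie above the median of their bin, and HOXA9 is the highest at 40.1%.

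The genes that act with or on the HOX clusters were described from lists. Of the 9 TALE cofactors, the homeodomain partners of HOX proteins, 8 were tested and 3 had an unadjusted p under 0.05, all higher in A2M* tumours, beside 7.08% of all genes at that p and 3.55% in that direction. MEIS1 had 4.64, 4.77, 3.92, 4.85 and 4.49 CPM in the PBS tumours and 4.72 to 7.48 CPM in the A2M* tumours, for a fold change of 0.42 on the log2 scale (SE 0.12, edgeR, adjusted p = 0.599). Only tumour A2M-112 reached into the PBS values. MEIS2 had a log2 fold change of 0.26 (SE 0.090, edgeR, adjusted p = 0.640) and PKNOX1 of 0.18 (SE 0.081, edgeR, adjusted p = 0.693). The median over the 8 tested TALE genes was 0.093, beside -0.0021 over all genes.

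Of 19 tested Polycomb genes, which repress HOX clusters, and of 12 tested trithorax and H3K27 demethylase genes, which counter that, 0 had an unadjusted p under 0.05. Their median log2 fold changes were 0.0087 and 0.024. RBBP7 and DPY30, the strongest in RPKM of each list, had -0.0092 (SE 0.052) and 0.036 (SE 0.056). The value of DPY30 was 0.020 without tumour PBS-127 and 0.057 without tumour PBS-125. RBBP7, a histone-binding subunit, took the other sign with upper quartile or library size scaling and with limma-trend.

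Of 29 listed non-coding genes in the HOX clusters, 14 were tested, 2 had an unadjusted p under 0.05 and both were higher in A2M* tumours, again beside 7.08% and 3.55% of all genes. HOXB-AS3, which overlaps HOXB5 and HOXB6 on the opposite strand, had 13.5, 10.8, 11.0, 14.9 and 12.9 CPM in the PBS tumours and 12.8 to 24.6 CPM with a median of 17.0 in the A2M* tumours. The log2 fold change was 0.47 (SE 0.15, edgeR, adjusted p = 0.640). Whether reads were counted by strand is not given in the sources used here, so reads of HOXB6 and HOXB-AS3 cannot be told apart where they overlap. HOTAIRM1, a non-coding RNA of the HOXA cluster, had a log2 fold change of 0.21 (SE 0.095, edgeR, adjusted p = 0.699) and was the strongest of the list in RPKM.

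Of 11 tested genes beside the clusters, 1 had an unadjusted p under 0.05, beside 7.08% of all genes. This was SKAP2, an adaptor protein gene next to HOXA, with a log2 fold change of 0.25 (SE 0.065, edgeR, adjusted p = 0.599). Its groups did not overlap, with 24.1 to 28.2 CPM in PBS and 29.3 to 33.4 CPM in A2M* tumours. Every A2M* tumour stood above every PBS tumour in 0.385% of all genes. PRAC1, a prostate and colon gene between HOXB13 and HOXB9, had -0.14 (SE 0.097, edgeR, adjusted p = 0.836), and -0.080 without tumour A2M-131. Of 9 tested retinoid genes, which carry the signal that opens the clusters in embryos, RARB had 0.71 (SE 0.30, edgeR, adjusted p = 0.663) at 0.199 to 0.577 CPM and CYP26B1 had 0.37 (SE 0.17, edgeR, adjusted p = 0.701). CRABP2, the strongest of them, had -0.34 (SE 0.16, edgeR, adjusted p = 0.708). The ParaHox genes, the sister family of the HOX genes, had too few counts to be tested, and the strongest, PDX1, had 0.0853 to 0.289 CPM.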

How the data were processed

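RNA of PC-3 xenografts was prepared by the authors with an Illumina TruSeq kit and sequenced as single reads. The authors sorted reads by species with xenome, mapped the human reads with TopHat2 to hg19 and used featureCounts to count them per RefSeq gene. The deposited counts are whole and unscaled. The authors also deposited RPM (count per 1000000 counted reads) and RPKM (RPM per kilobase of exon). Versions of xenome and featureCounts and the strand setting are not given in the sources used here. Reads assigned to the mouse were not used here.

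Tumours were grouped by labelled treatment, without covariates. Counts were filtered with filterByExpr, scaled by TMM and entered into the two-sided quasi-likelihood test of edgeR 4.0.16 (R 4.3.3) with a Benjamini-Hochberg threshold of 0.01 over all 16630 genes, steps that were first tested on simulated data. Standard errors are the log2 fold change divided by the root of F. Levels used RPKM, and variation the tagwise dispersion. Detection required 3 counts, and CPM limits cover counting error only. Named genes were HOXB13, the 3 highest of each cluster, the 3 smallest p in each direction, members with separate groups or with counts in some tumours only, and from each related list the highest and those with an unadjusted p under 0.05. Some genes that this rule takes in are not reported here. Members and lists were chosen with earlier results of these data known. Alternatives were other scalings, filters and tests (DESeq2 1.42.0, limma 3.58.1), log2 RPKM with a pseudocount of 0.1, and the omission of each tumour. Positions and exon overlaps are from GENCODE on GRCh37, and the overlaps cover counted genes only. P-values measure the spread between tumours of 1 cell line. Figures were drawn with matplotlib 3.10.9.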

Additional observations from a re-analysis of the deposited data

Results flagged for a closer look

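Each HOX gene and cluster sum was searched in both groups for a tumour standing apart by Dixon's criterion. Of the 102 groups searched, 7 were marked, where chance gives about 5.1. Of these, 3 were neighbouring HOXA genes in A2M* tumour A2M-132: HOXA3 with 15.7 CPM (others of the group 9.56 to 11.4), HOXA4 with 6.08 CPM (4.01 to 4.51) and HOXA5 with 9.23 CPM (5.54 to 6.56). HOXB9 stood apart in A2M* tumour A2M-131 with 80.9 CPM (others 51.4 to 60.6). HOXC10 stood apart in A2M* tumour A2M-112 with 4.22 CPM (others 3.64 to 3.79). In the PBS group, HOXA10 was low in tumour PBS-124 with 25.4 CPM (others 30.2 to 31.5) and HOXB3 was high in tumour PBS-127 with 106.0 CPM (others 91.2 to 94.0).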

How the results depend on the processing

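Under every alternative with an adjusted threshold, and in each of the 11 fits without 1 tumour, 0 HOX genes and 0 of the related genes were called. Over all genes, DESeq2, the likelihood ratio test and the exact test of edgeR each called 1. At an unadjusted p under 0.05 the counts were 6 of 33 HOX genes, 8 of 78 related genes and 1178 of 16630 genes in all. With a p of 0.01 or less from edgeR and also from DESeq2 they were 3 of 33, 3 of 78 and 241 of 16630. Of 643 fold changes of 31 named genes under alternatives, 613 kept their sign and 30 of 7 genes did not, all of them near 0. HOXA10 was -0.0028 without a filter and -0.040 with limma-voom, and HOXC13 was -0.000109 and -0.014. RBBP7 was 0.0047 with upper quartile scaling, 0.034 by library size and 0.034 with limma-trend, and FOXA1 was 0.0092, 0.038 and 0.011. Leaving out 1 tumour at a time gave -0.11 to 0.10 for HOXA10, -0.034 to 0.12 for HOXA11, -0.024 to 0.098 for HOXB13, -0.053 to 0.066 for HOXC13, -0.17 to 0.024 for HOXC4, -0.026 to 0.0074 for RBBP7 and -0.098 to 0.081 for FOXA1. The cause was not tested. Without its highest member the median sum was 33.5 RPKM for HOXA, 120.9 for HOXB, 14.4 for HOXC, 2.67 for HOXD and 172.2 for all, and HOXC took 8.15%. HOXB took 66.7% over the 5 PBS tumours. At a median of 1 RPKM, 1 HOXD gene was detected. The number of HOX genes above 0 was 27 of 33 with limma-voom and 29 under each other scaling. No paired analysis was possible because the groups share no tumour numbers. Depth limits HOXD9, HOXD10 and the untested members most, with at most 29 counts.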

Other observations

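The spliced readthrough HOXA10-HOXA9 is listed with 0 counts in every tumour. How reads that fall on several genes were counted is not given in the sources used here. The 0 therefore does not show whether the readthrough was transcribed.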
